A study of Neogale vison with 6 samples.

Results

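The genes described here encode the kinesin motors and the machinery that condenses, attaches, checks and separates chromosomes in mitosis. They were chosen by symbol in the count table: every gene of the KIF series, every CENP gene, the condensin subunits NCAPD, NCAPG and NCAPH, SPC24, SPC25, CDCA2, CDCA3, CDCA5 and CDCA8, and 25 further genes listed by name, among them AURKA, AURKB, PLK1, CDK1 and TOP2A. This gave 84 of the 24526 genes. Of the 25 listed names, 21 were matched by symbol, and BUB1B, CCNB1, MAD2L1 and PTTG1 were not analysed here. The samples were Mv1Lu cells, one epithelial line derived from the lung of the mink, sequenced as 3 libraries of untreated cells (control) and 3 libraries of cells subjected to cholesterol depletion (CD). For CD, the cells were kept for 16 h in medium with 10% lipoprotein-deficient serum (LPDS), 50 μM lovastatin, a statin that inhibits HMG-CoA reductase, and 50 μM mevalonate, the product of that enzyme. Serum, statin and mevalonate changed together, so their parts cannot be told apart, and the labels do not say whether the replicates came from separate cultures, so the p-values measure the spread between these libraries.

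Kinesins are motor proteins that walk along microtubules or shorten their ends. One set of kinesins builds the spindle, moves chromosomes and completes cytokinesis, and most of these genes are known to be transcribed mainly in the G2 and M phases of the cell cycle. The other kinesins carry vesicles, organelles and ciliary cargo in cells at any phase. The kinetochore is the protein layer on the centromere that binds spindle microtubules, and the spindle checkpoint holds anaphase until every kinetochore is attached. In dividing epithelial lines such as Mv1Lu these genes are active together in the fraction of cells that approach mitosis. In RNA from whole cultures, fewer cells in G2 or M phase and less RNA of these genes per cell cannot be told apart.

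The libraries held between 13473820 and 18633764 reads on genes. Reads without a gene made up 29.3% to 47.2% of a library, with the extremes in the control group. All 6 libraries of the epithelial line had high keratin levels, with KRT7 at 6840 to 7370 CPM (reads of a gene scaled to the size of the library) in control and 1100 to 1410 CPM in CD, whereas EPCAM and CDH1 stayed below 0.5 CPM in each library. Of the 4 endothelial markers only the receptor TEK had enough reads to be tested, at 206 to 221 CPM in control and 74.6 to 123 CPM in CD. PECAM1, CDH5 and KDR were at most at 0.307 CPM in a library. The leukocyte gene PTPRC was at 0 in 5 libraries and 0.072 CPM in CD replicate 3. CD68, a lysosomal protein abundant in macrophages and the only immune marker with enough reads, was higher in CD, at 16.9 to 22.4 CPM against 5.13 to 5.62 CPM in control (FDR 2.49e-05, edgeR). The 8 epithelial markers were represented by 6 in the table, with a summed level of 7726 to 8377 CPM in control and 1484 to 1952 CPM in CD, most of it KRT7. Of the 3 that could be tested, KRT7 and KRT19 were lower and CLDN4 was higher, from 0.441 to 0.867 CPM in control to 5.84 to 8.04 CPM in CD (FDR 9.61e-06, edgeR), passing the filter on low counts through its CD libraries. Fibroblast markers summed to 310 to 387 CPM in control and 183 to 232 CPM in CD, with 4 of the 5 tested lower. DCN and LUM, not tested, were at most at 0.864 CPM in a library. The part of these markers in the results was not tested. The spread among the CD libraries exceeded that among the control libraries, with a median SD over all tested genes of 0.23 against 0.12 on the log2 CPM scale.

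CD cells had lower RNA levels of nearly all mitotic genes of the module, which did not hold for the transport kinesins. Of the 84 genes, 76 had enough reads to be tested with the quasi-likelihood test of edgeR, and 57 were lower and 4 higher in CD at a false discovery rate (FDR) under 0.05. Over all 12148 genes tested, 22.9% were lower and 24.8% higher. When the transport and other kinesins are set aside, 56 of the 60 tested genes (93.3%) were lower and 0 were higher, and their median log2 fold change of CD against control was -1.95, beside 0.06 over all tested genes. A called decrease of at least 2-fold was found for 49 of these 60 genes, against 9.64% of all tested genes, and one of at least 4-fold for 29, against 2.49%. All 3 CD libraries lay below all 3 control libraries for 56 of the 60, as for 28.6% of all tested genes. The summed level of the 61 genes of this set was 5380, 5310 and 5460 CPM in control replicates 1, 2 and 3 and 1530, 1550 and 1720 CPM in CD replicates 1, 2 and 3.

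**Figure D1:**
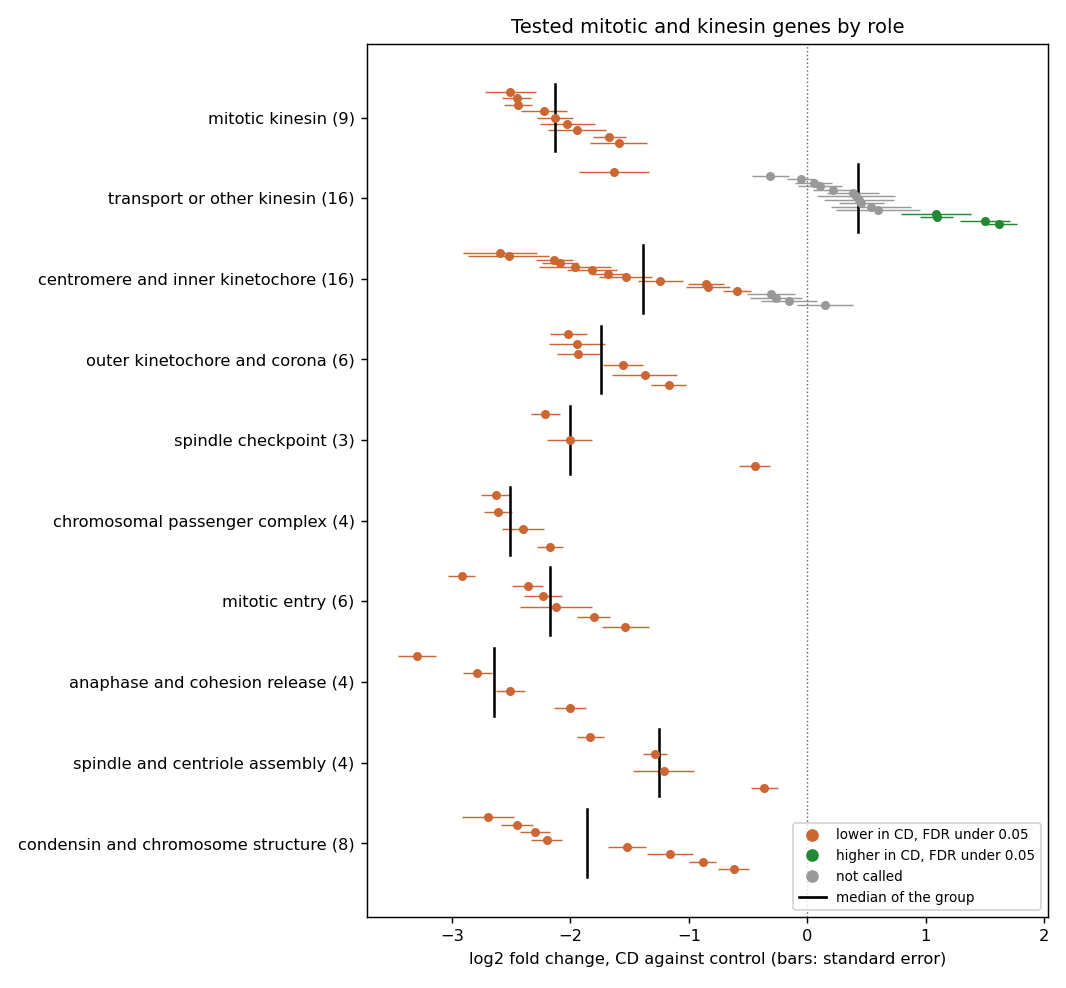
Log2 fold change of CD against control (x axis) for the 76 tested genes, grouped by role with the number of genes in brackets. Points are genes, bars their standard errors, black lines the group medians; the medians of the mitotic groups lie to the left of 0, with CENPC at 0.15, and the 4 genes higher in CD belong to the transport or other kinesins.

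Among the kinesins, the mitotic motors fell and the transport motors did not follow them. All 9 tested mitotic kinesins were lower in CD (edgeR, FDR under 0.05), with log2 fold changes from -2.51 (KIF14, a motor of cytokinesis) to -1.59 (KIF20B, also of cytokinesis). Of the 16 tested transport or other kinesins, 4 were higher, 1 was lower and 11 were not called, with a median log2 fold change of 0.43. The share that was higher, 25%, is that of all tested genes (24.8%), and the share that was lower was 6.25% against 22.9%. The mitotic kinesins together were at 575, 580 and 591 CPM in control replicates 1, 2 and 3 and at 136, 122 and 118 CPM in the CD replicates. The sum over the transport or other kinesins was 984, 948 and 948 CPM in control and 1150, 1110 and 1020 CPM in CD, and most of it was KIF1C. No test of the difference between these sets was made, because the sets are described by counts and medians.

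KIF22 (ENSNVIG00000025018), a chromokinesin that pushes chromosome arms toward the spindle equator, was at 230, 231 and 262 CPM in control replicates 1, 2 and 3 and at 41.9, 44.3 and 46.8 CPM in CD replicates 1, 2 and 3. Its groups lay far apart, with a log2 fold change of -2.44 (SE 0.12, FDR 3.94e-07, edgeR), a 5.44-fold decrease. KIF2C (ENSNVIG00000018352) depolymerizes microtubules at faulty kinetochore attachments. Its level was 121, 125 and 133 CPM in control and 25.6, 22.1 and 21.4 CPM in CD (log2 fold change -2.45, SE 0.13, FDR 4.95e-07, edgeR). KIF4A, a chromokinesin that also acts on the central spindle, was at 37.0, 41.1 and 33.9 CPM in control and at 9.22, 8.22 and 8.14 CPM in CD (log2 fold change -2.13, SE 0.15, FDR 3.64e-06, edgeR). KIF20A, which brings Aurora B to the central spindle, fell less: it was at 83.5, 83.8 and 80.5 CPM in control and at 28.0, 28.2 and 21.5 CPM in CD, a log2 fold change of -1.67 (SE 0.14, FDR 9.38e-06, edgeR). In each of these 4 genes every CD library was below every control library, as for 28.6% of all tested genes. The remaining mitotic kinesins KIF18A, KIF15 and KIF11, the motor that pushes the spindle poles apart, had log2 fold changes of -2.22, -2.02 and -1.94. KIF2B had 0 counts in each library, which allows up to 0.165 to 0.217 CPM.

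**Figure D2:**
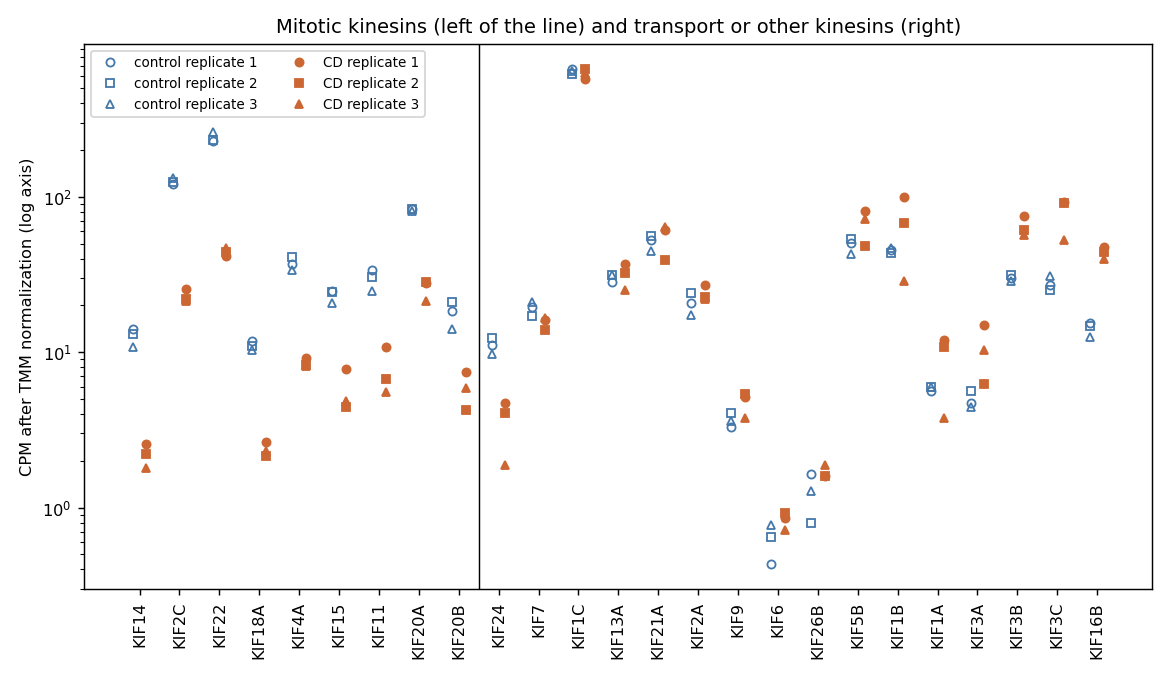
Level of each tested kinesin in the 3 control (open) and 3 CD (filled) libraries, in CPM after TMM normalization on a log axis, with the symbol shape giving the replicate. Levels are to be compared within a gene, since they are not divided by transcript length; the control and CD points of all 9 mitotic kinesins are separate, and those of 10 of the 16 other kinesins overlap, as do those of 5099 of all 12148 tested genes (28.6% have all CD libraries below and 29.5% above control).

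The kinesins of the module that were called higher were KIF16B and the 3 motor subunits of kinesin-2. KIF16B, a motor that moves early endosomes, was at 15.3, 14.7 and 12.6 CPM in control and at 47.7, 43.9 and 39.5 CPM in CD (log2 fold change 1.62, SE 0.15, FDR 1.68e-05, edgeR), so that each CD library held more than each control library. KIF3A, KIF3B and KIF3C form the heterodimers of kinesin-2, which carries cargo into cilia and along axons. KIF3B was at 30.2, 31.4 and 28.8 CPM in control and at 75.3, 61.0 and 56.8 CPM in CD (log2 fold change 1.09, SE 0.14, FDR 1.52e-04, edgeR). KIF3C was at 27.2, 25.2 and 31.0 CPM in control and at 92.5, 91.5 and 52.4 CPM in CD (log2 fold change 1.5, SE 0.21, FDR 2.84e-04, edgeR), with CD replicate 3 closest to the control. KIF3A had fewer reads, with 4.73, 5.64 and 4.46 CPM in control and 14.9, 6.26 and 10.4 CPM in CD. Its CD libraries spread widely and CD replicate 2 came near the control (log2 fold change 1.09, SE 0.30, FDR 0.0123, edgeR). Without control replicate 3 the KIF3A value was 1.02 with an FDR of 0.0609 (edgeR).

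KIF24 was the exception in the other direction. This kinesin shortens centriolar microtubules and restrains the growth of cilia, and it is grouped here with the transport and other kinesins. It was at 11.2, 12.4 and 9.70 CPM in control and at 4.73, 4.05 and 1.87 CPM in CD (log2 fold change -1.63, SE 0.29, FDR 0.00128, edgeR). KIF2A, a relative of KIF2C that shortens microtubules at spindle poles and elsewhere, was not called, with a log2 fold change of 0.22 (SE 0.17, FDR 0.313, edgeR).

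KIF1C, a motor for vesicles of the secretory pathway, was at 667, 621 and 646 CPM in control and at 573, 664 and 623 CPM in CD, with overlapping groups and a log2 fold change of -0.06 (SE 0.11, FDR 0.71, edgeR). KIF5B, the heavy chain of the kinesin-1 motor, was at 50.7, 53.6 and 42.7 CPM in control and at 81.0, 48.5 and 72.3 CPM in CD. Its CD replicate 2 lay inside the control range, and the gene was not called (log2 fold change 0.46, SE 0.19, FDR 0.0673, edgeR), but it was called without that library (0.61, FDR 0.0137, edgeR) and, with all libraries, when no filter on low counts was used (0.45, FDR 0.0453, edgeR). For 2 further motors the call turned on CD replicate 3. KIF1B, which carries mitochondria and synaptic vesicle precursors, was at 45.4, 43.7 and 46.8 CPM in control and at 100, 68.0 and 28.9 CPM in CD. KIF1A, its relative in axonal transport, was at 5.66, 6.0 and 5.95 CPM in control and at 12.0, 10.8 and 3.75 CPM in CD. In both genes CD replicates 1 and 2 lay above and CD replicate 3 below all control libraries. Neither was called over all libraries (FDR 0.217 for KIF1B and 0.189 for KIF1A, edgeR), and without CD replicate 3 both were higher, with log2 fold changes of 0.85 (FDR 1.26e-07, edgeR) and 0.92 (FDR 3.94e-05, edgeR). Leaving out that library also raised the calls over all genes, from 5800 of 12148 to 7222 of 12330. Over the 16 tested transport or other kinesins, CD replicate 3 was the lowest CD library in 10 and CD replicate 1 the highest in 10. Over all 12148 tested genes, CD replicate 3 was the lowest in 4979 and CD replicate 1 the highest in 4475.

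Of the remaining kinesins that were tested, KIF7, which acts at the tip of the cilium in Hedgehog signaling, had a log2 fold change of -0.31 (SE 0.16, FDR 0.13, edgeR) and was called lower without CD replicate 3 (-0.40, FDR 0.0313, edgeR). In that setting the calls over all genes rose as well, to 7222 of 12330. KIF6, KIF9, KIF13A, KIF21A and KIF26B were not called, with log2 fold changes from 0.05 (KIF13A) to 0.44 (KIF26B). The other 7 kinesins did not have enough reads for the test. KIF25 had 0 counts in each library, KIF5A, KIF5C, KIF12 and KIF17 had at most 4 counts in a library, and KIF19 and KIF21B had at most 10.

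The centromere and inner kinetochore were represented by 16 tested genes, with a median log2 fold change of -1.39. Of these, 12 (75%, beside 22.9% of all tested genes) were lower in CD and 4 were not called (edgeR, FDR under 0.05). CENPA, the histone H3 variant that marks centromeres, was at 65.5, 55.4 and 50.4 CPM in control and at 12.4, 14.6 and 21.7 CPM in CD (log2 fold change -1.82, SE 0.21, FDR 8.01e-05, edgeR). CENPB, which binds centromeric satellite DNA, changed less, from 290, 239 and 262 CPM in control to 159, 174 and 192 CPM in CD (log2 fold change -0.59, SE 0.12, FDR 0.00268, edgeR). The groups of both genes were separate.

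The subunits of the constitutive centromere-associated network, the inner layer that stays on CENPA chromatin, were lower in part: 3 of 4 in CENP-H/I/K/M, 3 of 4 in CENP-O/P/Q/U, 2 of 3 in CENP-T/W/S and 2 of 2 in CENP-L/N. Over all tested genes, 22.9% were lower. CENPM (ENSNVIG00000022296), of the CENP-H/I/K/M complex, was at 65.7, 72.2 and 69.9 CPM in control and at 12.7, 16.1 and 18.6 CPM in CD (log2 fold change -2.14, SE 0.16, FDR 4.71e-06, edgeR). CENPK and CENPI of the same complex had log2 fold changes of -2.52 and -1.96, with CENPK passing the filter on low counts through its control libraries, since CD replicate 2 held 10 reads, whereas CENPH, the remaining subunit, was at 10.6, 11.0 and 9.04 CPM in control and at 7.99, 6.99 and 12.6 CPM in CD and was not called (log2 fold change -0.15, SE 0.24, FDR 0.62, edgeR). In the CENP-O/P/Q/U complex, CENPO was at 51.8, 43.6 and 50.3 CPM in control and at 13.6, 15.1 and 16.7 CPM in CD (log2 fold change -1.68, SE 0.14, FDR 1.21e-05, edgeR). CENPU and CENPP followed with -1.53 and -0.85, but CENPQ, at 11.8, 14.1 and 9.81 CPM in control and 10.8, 7.42 and 11.5 CPM in CD, was not called (log2 fold change -0.27, SE 0.22, FDR 0.342, edgeR).

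CENPT, which reaches out to bind the NDC80 complex, fell from 47.4, 46.6 and 53.2 CPM in control to 10.4, 10.9 and 13.3 CPM in CD, with no overlap (log2 fold change -2.09, SE 0.15, FDR 3.90e-06, edgeR). Its histone-fold partner CENPW had a log2 fold change of -0.84, and CENPS, which joins them and also acts in DNA repair, was at 22.4, 24.3 and 21.6 CPM in control and at 15.9, 14.7 and 24.6 CPM in CD (log2 fold change -0.31, SE 0.20, FDR 0.235, edgeR). CENPS and CENPH were highest in CD replicate 3, and without it both were called lower, with log2 fold changes of -0.61 (FDR 7.19e-04, edgeR) and -0.48 (FDR 0.0305, edgeR). Calls over all genes also rose without that library, from 5800 of 12148 to 7222 of 12330. CENPL and CENPN, which read CENPA nucleosomes, had log2 fold changes of -2.60 and -1.24. CENPL rested on few reads, 85 over the control libraries against 14 over those of CD, and likewise passed the filter through its control libraries. CENPC, the scaffold that links the centromere to the outer layer, had a log2 fold change of 0.15 (SE 0.24, FDR 0.62, edgeR).

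**Figure D3:**
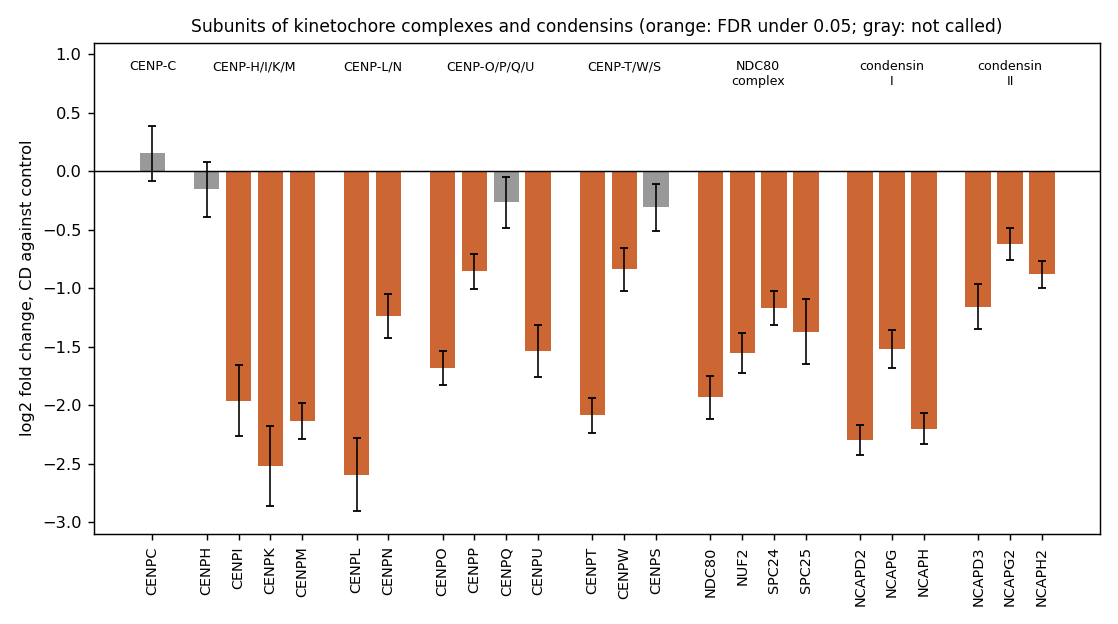
Log2 fold change of CD against control (bars, with standard errors) for the subunits of the inner kinetochore, the NDC80 complex and the condensins. Orange bars passed an FDR of 0.05 and gray bars did not; CENPC, CENPH, CENPQ and CENPS did not pass, with values from -0.31 to 0.15, and CENPM, CENPO and CENPT, of the complexes of the latter 3, lie at -2.14, -1.68 and -2.09.

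In the outer kinetochore and its fibrous corona all 6 tested genes were lower in CD (edgeR, FDR under 0.05), beside 22.9% of all tested genes. Their median log2 fold change was -1.74. CENPF, a large corona protein that appears in G2, was at 85.7, 73.7 and 66.0 CPM in control and at 19.1, 15.7 and 20.9 CPM in CD (log2 fold change -2.02, SE 0.16, FDR 6.54e-06, edgeR). The NDC80 complex is the main microtubule coupler, built of the pairs NDC80 with NUF2 and SPC24 with SPC25. NDC80 was at 14.8, 16.0 and 12.7 CPM in control and at 3.75, 3.74 and 3.89 CPM in CD (log2 fold change -1.93, SE 0.18, FDR 2.09e-05, edgeR). NUF2 was at 29.5, 35.8 and 27.0 CPM in control and at 10.3, 9.33 and 11.8 CPM in CD (log2 fold change -1.56, SE 0.17, FDR 5.95e-05, edgeR). SPC25 and SPC24 had log2 fold changes of -1.37 and -1.17, and CENPE, the kinesin of the corona, -1.94. Every CD library was below every control library in all 6 genes, as for 28.6% of all tested genes.

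The spindle checkpoint was represented by 3 genes, all lower in CD, beside 22.9% of all tested genes. BUB1, a kinase that recruits the checkpoint to kinetochores, was at 70.4, 69.3 and 67.5 CPM in control and at 15.2, 14.1 and 15.3 CPM in CD (log2 fold change -2.21, SE 0.12, FDR 7.81e-07, edgeR). TTK, the kinase that starts checkpoint signaling, was at 13.9, 15.3 and 13.9 CPM in control and at 2.95, 3.80 and 3.96 CPM in CD (log2 fold change -2.01, SE 0.19, FDR 2.17e-05, edgeR). BUB3, the adaptor that binds both BUB1 and its relatives, changed far less, from 196, 191 and 203 CPM in control to 123, 141 and 170 CPM in CD (log2 fold change -0.44, SE 0.13, FDR 0.0186, edgeR). Without control replicate 1, control replicate 3 or CD replicate 2, BUB3 was not called (FDR 0.0614, 0.0713 and 0.0596, edgeR).

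The chromosomal passenger complex corrects attachment errors and then organizes cytokinesis. Its 4 genes were all at least 4-fold lower in CD, beside 2.49% of all tested genes, with a median log2 fold change of -2.51. AURKB (ENSNVIG00000005021), its kinase, was at 214, 209 and 217 CPM in control and at 30.2, 34.2 and 39.0 CPM in CD (log2 fold change -2.63, SE 0.13, FDR 4.17e-07, edgeR). CDCA8, or borealin, which targets the complex to centromeres, was at 96.7, 95.7 and 104 CPM in control and at 16.3, 16.3 and 15.8 CPM in CD (log2 fold change -2.61, SE 0.12, FDR 3.11e-07, edgeR). INCENP, the scaffold and activator of the kinase, was at 332, 331 and 383 CPM in control and at 77.9, 78.7 and 75.6 CPM in CD (log2 fold change -2.17, SE 0.11, FDR 5.62e-07, edgeR). BIRC5, or survivin, had a log2 fold change of -2.40. All CD libraries of the 4 genes were below control, as for 28.6% of all tested genes.

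Aurora A, the relative of Aurora B at spindle poles, did not show a decrease of this size. AURKA was at 79.5, 81.6 and 79.4 CPM in control and at 68.3, 59.0 and 59.7 CPM in CD, a log2 fold change of -0.36 (SE 0.11, FDR 0.0238, edgeR). It was not called when any 1 of the control replicates or CD replicate 2 was left out, or with the replicate number as a block (FDR 0.0682 to 0.0844, edgeR). Within a library, the log2 ratio of AURKA to AURKB lay between -1.45 and -1.35 in control and between 0.61 and 1.18 in CD. TPX2, which activates Aurora A on the spindle, fell from 105, 102 and 96.1 CPM in control to 29.6, 28.2 and 27.0 CPM in CD (log2 fold change -1.83, SE 0.11, FDR 1.60e-06, edgeR). PRC1, which bundles microtubules of the central spindle, was at 255, 271 and 273 CPM in control and at 108, 108 and 112 CPM in CD (log2 fold change -1.29, SE 0.10, FDR 7.28e-06, edgeR). PLK4, the kinase of centriole duplication, had few reads, with 2.65, 2.53 and 2.64 CPM in control and 1.29, 0.798 and 1.3 CPM in CD (log2 fold change -1.21, SE 0.26, FDR 0.00345, edgeR).

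The 6 genes of mitotic entry were all lower in CD by at least 2-fold, beside 9.64% of all tested genes. PLK1 (ENSNVIG00000005796), the kinase that drives entry, spindle assembly and exit, had the lowest FDR of the 84 genes. It was at 332, 311 and 352 CPM in control and at 44.9, 45.1 and 41.5 CPM in CD, so that the CD libraries lay within a narrow range 7.56-fold below the control (log2 fold change -2.92, SE 0.11, FDR 1.48e-07, edgeR). CDCA3, known as a trigger of mitotic entry, was at 330, 323 and 338 CPM in control and at 55.9, 62.6 and 74.2 CPM in CD (log2 fold change -2.36, SE 0.13, FDR 7.81e-07, edgeR). CCNA2, cyclin A2, was at 24.2, 28.9 and 26.5 CPM in control and at 5.84, 5.46 and 5.62 CPM in CD (log2 fold change -2.23, SE 0.16, FDR 3.74e-06, edgeR). CDC25C, the phosphatase that activates CDK1, cyclin B2 (CCNB2) and CDK1 itself had log2 fold changes of -2.12, -1.80 and -1.54.

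The genes of anaphase and of the release of cohesion held the largest decrease of the module. ESPL1 (ENSNVIG00000000404) encodes separase, the protease that cuts cohesin at anaphase. It was at 75.9, 76.0 and 85.9 CPM in control and at 9.10, 8.59 and 6.48 CPM in CD, a 9.81-fold decrease (log2 fold change -3.29, SE 0.16, FDR 4.17e-07, edgeR). CDC20, the activator of the anaphase-promoting complex (APC/C) that the checkpoint inhibits, was at 379, 362 and 421 CPM in control and at 51.5, 55.2 and 61.8 CPM in CD (log2 fold change -2.79, SE 0.12, FDR 3.04e-07, edgeR). CDCA5, or sororin, which protects cohesion until mitosis, was at 123, 122 and 126 CPM in control and at 19.5, 23.6 and 22.3 CPM in CD (log2 fold change -2.51, SE 0.12, FDR 4.17e-07, edgeR). UBE2C, the ubiquitin-conjugating enzyme of the APC/C, had a log2 fold change of -2.0. All 4 genes were lower by at least 4-fold, beside 2.49% of all tested genes.

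All 8 genes of chromosome condensation were lower in CD, beside 22.9% of all tested genes, with sizes that differed between the condensin complexes. TOP2A, the topoisomerase that untangles sister chromatids, was at 118, 112 and 99.1 CPM in control and at 22.2, 18.7 and 19.3 CPM in CD (log2 fold change -2.45, SE 0.13, FDR 7.52e-07, edgeR). CDCA2, or Repo-Man, a phosphatase adaptor of anaphase chromatin, had a log2 fold change of -2.69. Condensin I compacts chromosomes after the nuclear envelope breaks down, and its subunit NCAPD2 was at 165, 162 and 176 CPM in control and at 37.6, 35.3 and 29.1 CPM in CD (log2 fold change -2.30, SE 0.13, FDR 8.66e-07, edgeR). NCAPH of the same complex was at 63.0, 60.6 and 61.9 CPM in control and at 13.3, 14.9 and 12.0 CPM in CD (log2 fold change -2.20, SE 0.13, FDR 1.43e-06, edgeR), and NCAPG had -1.52. The subunits of condensin II, which is in the nucleus throughout the cell cycle, had log2 fold changes of -1.16 (NCAPD3), -0.88 (NCAPH2) and -0.62 (NCAPG2). The median log2 fold change was -2.20 over the 3 condensin I and -0.88 over the 3 condensin II subunits.

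Within libraries, the ratio of several partner genes differed between the groups. The log2 ratio of NCAPH2 to NCAPH lay between 0.997 and 1.08 in control and between 2.23 and 2.56 in CD, that of NCAPD3 to NCAPD2 between -3.1 and -2.80 and between -1.94 and -1.62, and that of NCAPG2 to NCAPG between 1.08 and 1.35 and between 1.88 and 2.35. The ratio of BUB3 to BUB1 was higher in CD by 1.76 on the log2 scale, that of CENPH to CENPM by 1.96, that of CENPS to CENPT by 1.75, that of CENPQ to CENPO by 1.41 and that of SPC24 to NDC80 by 0.74. The ratio of KIF24 to KIF2A was lower in CD by the difference between a mean of -0.88 in control and -2.85 in CD. For each of the 10 ratios examined, AURKA to AURKB included, the 3 CD libraries were on one side of the 3 control libraries (two-sided p = 0.1 by an exact permutation test, which cannot give a lower p with 3 libraries per group, and 0.1 after adjustment over the 10 ratios). The pairs were chosen after the values of single genes had been seen, so these ratios are a description.

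**Figure D4:**
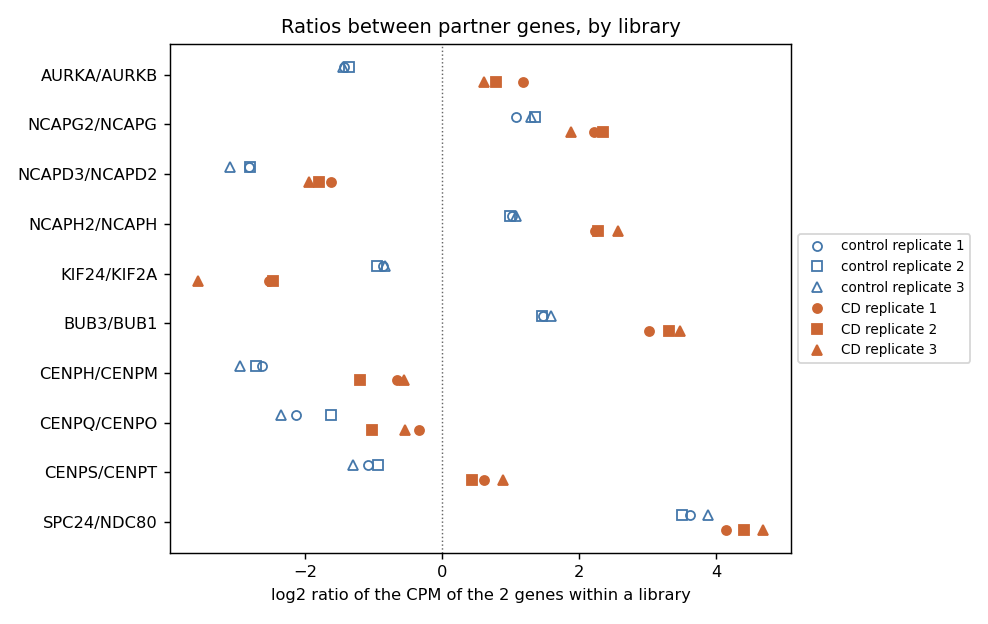
Log2 ratio of the CPM of 2 genes within each library (x axis) for 10 pairs of partner genes, in control (open) and CD (filled) libraries. Only the shift between groups can be read, since levels are not divided by transcript length; the AURKA to AURKB ratio moves from about -1.41 to 0.86.

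Genes of mitosis outside the module were followed in 7 lists, written from general knowledge but with earlier results of these data known. Of 122 genes, 96 were matched by symbol and 94 tested, of which 62 were lower, 7 higher and 25 not called in CD (edgeR, FDR under 0.05), with a median log2 fold change of -0.83. The lower genes were 66% and the higher 7.45%, beside 22.9% and 24.8% of all tested genes. Other kinetochore and checkpoint genes were lower in 15 of 16, with MIS18A, which loads CENPA, at -2.79 (SE 0.19, FDR 2.59e-06, edgeR). Other spindle and centrosome genes were lower in 16 of 21 and higher in 1, from FAM83D, a partner of the chromokinesin KIF22, at -2.58 to the minus-end kinesin KIFC3 at 0.86 (FDR 4.71e-07 and 2.86e-04, edgeR). The cytokinesis genes were lower in 5 of 5, with anillin (ANLN) at -2.48 (FDR 2.31e-06, edgeR). Of 10 subunits and partners of the APC/C, 3 (30%) were lower, near the share of all tested genes, 0 were higher and 7 were not called, with a median of -0.22, and ANAPC2 had the lowest p among them (log2 fold change -0.63, FDR 0.00154, edgeR). Of 14 genes of cohesin and the core SMC proteins, 5 (35.7%, beside 22.9% of all tested genes) were lower and 9 were not called, with a median of -0.25. A decrease of at least 2-fold was found for 4 of them, among them SMC2, a core subunit of both condensins (-1.83, FDR 7.59e-05, edgeR), and SMC1A of cohesin (-1.26, FDR 3.28e-04, edgeR). ESCO2, which acetylates cohesin in S phase, had a log2 fold change of -3.33 (SE 0.31, FDR 2.02e-05, edgeR), but only 26 reads over the CD libraries against 258 over control, so that it passed the filter through its control libraries.

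**Figure D5:**
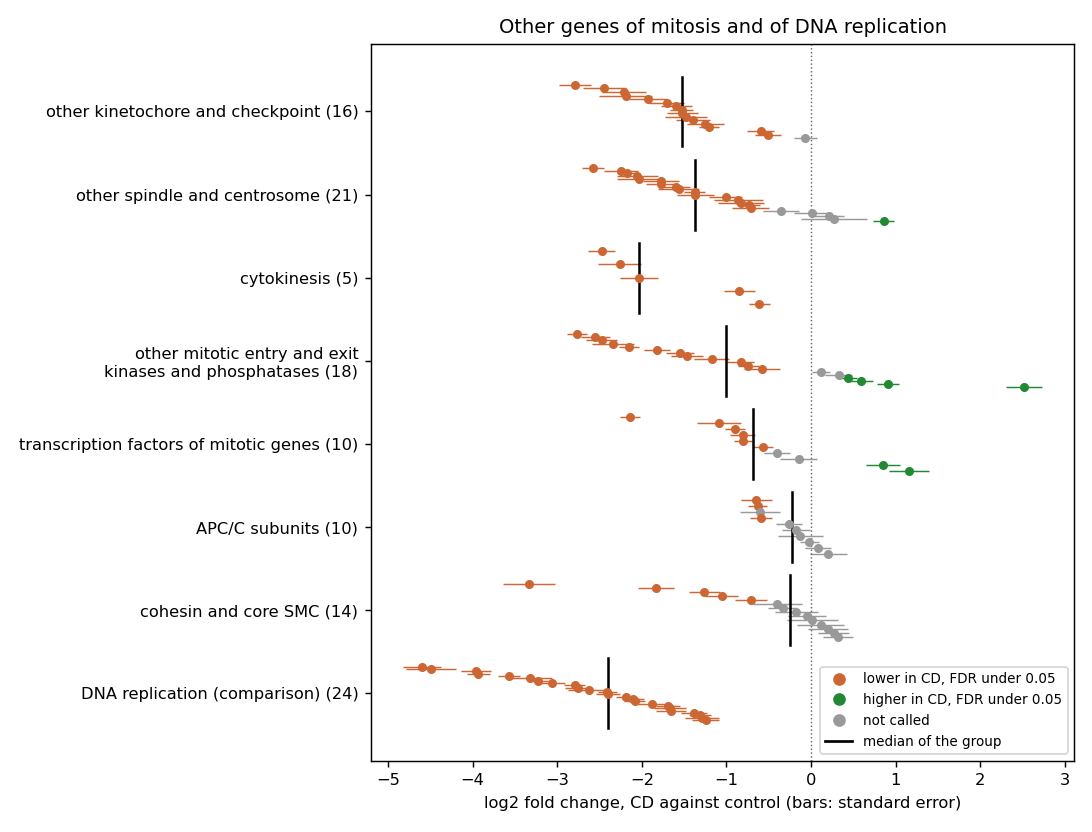
Log2 fold change of CD against control (x axis, bars are standard errors) for tested genes of 7 other mitosis lists and of DNA replication, with group medians as black lines and the number of genes in brackets. Kinetochore, spindle and cytokinesis genes lie mostly below 0, the medians of the APC/C subunits and of cohesin with the SMC proteins are -0.22 and -0.25, with 4 genes of the latter below -1, and all 24 replication genes lie below -1.

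Among the transcription factors known to act on mitotic promoters, 6 of 10 tested (60%) were lower and 2 (20%) higher in CD, with a median log2 fold change of -0.69, beside 22.9% lower and 24.8% higher of all tested genes. FOXM1, which activates G2 and M phase genes and is itself one of them, was at 140, 116 and 136 CPM in control and at 30.5, 29.3 and 29.2 CPM in CD (log2 fold change -2.14, SE 0.12, FDR 9.02e-07, edgeR). E2F4, a repressor of cell cycle genes in resting cells, had a log2 fold change of -0.90 (SE 0.12, FDR 1.91e-04, edgeR). Its pocket protein partner RBL2, or p130, was 1 of the 2 higher genes, a share no larger than that of all tested genes, and went from 23.9, 23.8 and 19.7 CPM in control to 68.9, 47.4 and 33.4 CPM in CD (log2 fold change 1.15, SE 0.24, FDR 0.00274, edgeR). The RBL2 libraries of the groups were separate, with CD replicate 3 closest to the control.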

How the data were processed

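RNA of 6 Mv1Lu libraries, 3 control and 3 CD, was analysed, with groups and replicate numbers from the titles of the samples. Per the labels and the methods, the authors isolated poly(A) mRNA, used a Nextera XT kit, processed the reads with fastp 0.20.1 and STAR 2.7.2a on the mink assembly NNQGG.v01, and compared groups with DESeq2 1.30.1 in R 4.0.3. The program that assigned reads to genes and its use of strand are not given in the sources used here, so overlapping and antisense genes are uncertain. The authors deposited raw counts per gene, which were used here, and normalized expression per library, which was not. No coordinates or sequences are given because no genome of that assembly was used here.

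The 4 rows of reads without a gene (29.3% to 47.2% of a library) were left out. Genes passing filterByExpr of edgeR 4.0.16 (R 4.3.3; minimum count 10, minimum total 15) were scaled by TMM and tested with glmQLFit (robust) and glmQLFTest, with the condition as the only term, and p-values were adjusted by Benjamini-Hochberg over all 12148 genes (threshold 0.05). The SE of a log2 fold change was derived from it and the F statistic, with a median of 0.18 over all genes. CPM are TMM-scaled and not divided by length. The fits were tested on simulated counts. Alternatives were DESeq2 1.42.0, limma-voom (limma 3.58.1), 3 other scalings, 2 other filters, an FDR of 0.01, KIF2A and KIF24 counted as mitotic, the replicate number as a block, and each library left out.

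The genes of the module, their roles and the lists were chosen with earlier results of these data known. Values per library are given by a rule: in each role the 3 genes (4 kinesins) of lowest p in the commoner direction, 2 in the other, and the 2 most abundant not called. In the lists the rule named the gene of lowest p in each direction, and FOXM1 and E2F4. Of these, E2F4, MIS18A, FAM83D, KIFC3, ANLN, ANAPC2 and ESCO2 are given without values per library. CENPA, CENPB, CENPC, CENPH, AURKA, KIF1A, KIF1B, KIF2A, KIF7, WEE1, PKMYT1, SMC2, SMC1A, other genes given by their fold change alone and the pairs in ratios were singled out after their values were seen. MYBL2, KIFC1 and MKI67 were not matched by symbol.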

Additional observations from a re-analysis of the deposited data

How the results depend on the processing

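The 57 lower genes of the module numbered 55 to 60 and the 4 higher genes 3 to 6 under the alternatives, and the 9 mitotic kinesins were lower in each. Of the lower genes, 55 were called in every setting in which they were tested (14, or 13 for CENPL and PLK4, which a minimum of 50 counts removed), as were 3 of the 4 higher genes; AURKA, BUB3 and KIF3A were not. The median log2 fold change without transport kinesins lay between -2.05 and -1.90. The 1 lower gene among transport or other kinesins was KIF24, so 0 remained when KIF2A and KIF24 were counted as mitotic, and there were 2 (KIF24 and KIF7) without CD replicate 3, with a range of 1 to 2 when each library was left out. Of the genes not called, 4 crossed 0 when a library was left out: CENPC (-0.0037 to 0.304) and KIF21A (-0.062 to 0.266) without CD replicate 3, and KIF1C (-0.137 to 0.0089) and KIF13A (-0.063 to 0.152) without CD replicate 1. The deviations of same-numbered libraries from their group means correlated at -0.020, -0.40 and -0.20, and those of other pairs at -0.023 to 0.31. With group means of only 3 libraries, this cannot decide whether the replicate numbers pair the libraries. With the replicate block 56 genes of the module were lower, AURKA being lost (FDR 0.0722, edgeR), and 4 higher. Genes with few reads, such as CENPL (SE 0.31) and PLK4 (SE 0.26), carry wide errors.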

Other observations

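Of 18 tested regulators of mitotic entry and exit outside the module, 12 (66.7%) were lower and 4 (22.2%) higher in CD (edgeR, FDR under 0.05), beside 22.9% and 24.8% of all tested genes. CCNF, cyclin F, a ubiquitin ligase subunit, was at 239, 230 and 260 CPM in control and at 34.7, 38.0 and 34.2 CPM in CD (log2 fold change -2.77, SE 0.12, FDR 2.19e-07, edgeR). CDC14A, a phosphatase of the centrosome, was at 1.65, 1.88 and 1.54 CPM in control and at 10.1, 10.8 and 8.14 CPM in CD (log2 fold change 2.52, SE 0.22, FDR 1.22e-05, edgeR). WEE1, the kinase that restrains CDK1, was also among the 4, chosen here after its value was seen, with 21.9, 23.4 and 20.8 CPM in control and 44.7, 39.3 and 40.1 CPM in CD (log2 fold change 0.91, SE 0.13, FDR 3.20e-04, edgeR). PKMYT1, the other kinase of the list that restrains CDK1, was lower, at 59.3, 54.6 and 66.9 CPM in control and 33.8, 38.8 and 35.7 CPM in CD (log2 fold change -0.74, SE 0.13, FDR 0.00106, edgeR).

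DNA replication genes, which act in S phase, were lower in CD in all 24 tested, beside 22.9% of all tested genes, from a log2 fold change of -4.60 (POLE) to -1.24 (PRIM2) around a median of -2.40. One of the 24, CDC6, held 7, 12 and 17 reads in CD and passed the filter on low counts through its control libraries. MCM2, a subunit of the replicative helicase, was at 366, 346 and 402 CPM in control and at 25.6, 26.0 and 21.3 CPM in CD (log2 fold change -3.93, SE 0.14, FDR 9.75e-08, edgeR). No test compared this list with the mitotic genes.

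The order of the CD libraries was counted in the parts of the module, and no test compared the parts. Among the 16 tested transport or other kinesins, CD replicate 3 was the highest CD library in 3 and the lowest in 10. Among the 60 tested genes without the transport or other kinesins, CD replicate 3 was the highest CD library in 33 and the lowest in 18, whereas over all 12148 tested genes it was the highest in 4874 and the lowest in 4979. CD replicate 3 had the largest share of unmapped reads of its group, 9.37% against 3.54% and 4.33%, and the part of this in the order was not tested. The shares of control replicates 1, 2 and 3 were 18.4%, 13.6% and 4.25%.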
